A study of Homo sapiens with 4 samples.

Results

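The genes described here are the protein-coding members of 3 families of tandemly repeated human genes, USP17L, FAM90A and REXO1L, and their cover by histone H4 trimethylated at lysine 20 (H4K20me3) in proliferating and senescent fibroblasts. Members were taken by symbol from GENCODE release 44 mapped to GRCh37, which gave 48 of 20163 protein-coding genes: 26 USP17L genes, 21 FAM90A genes and 1 REXO1L gene. The families were chosen because they stood out in the same peak lists, so their cover is a description of how they were chosen and not a test of it. Members that lay within 500 kb of each other were joined into arrays. The first, at 4p16.1 (chr4:9172135-9366447), held 21 members. The second, the distal part of 8p23.1 (chr8:7114426-7889340), held 22, and the third, the proximal part of 8p23.1 (chr8:11989926-11996358), held 2. The REXO1L locus at 8q21.2 (chr8:86555006-86840877) held 9 annotated entries but only 1 coding member, REXO1L1, and was added after the data had been seen. FAM90A1 on chromosome 12 and FAM90A27P on chromosome 19 lay outside all arrays.

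H4K20me3 was mapped by ChIP-seq in IMR90 cells, a strain of normal human lung fibroblasts that stops dividing after long culture. Proliferating cells (PRO) were taken at population doubling 32 and cells in replicative senescence (RS) at population doubling 86, with 2 samples in each group, 1 for each of 2 rabbit monoclonal antibodies from different makers. Cells of both groups come from 1 strain, and time in culture and senescence cannot be told apart. For each group there is 1 list of the peaks that both antibodies gave, and DiffBind supplied another, of regions that differed between PRO and RS. The lists give positions only, so read depth at a region is unknown and no value has a replicate error. The study gives read totals that differ between the samples, and cover was not adjusted for them. No difference between PRO and RS was tested.

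Macrosatellites are long tandem arrays whose unit is several kilobases long and can hold a whole gene. USP17L genes encode deubiquitinating enzymes of the DUB-3 group, first known from the RS447 macrosatellite, and their open frame is not split by introns. FAM90A is a primate gene family of unclear function, and REXO1L genes are relatives of REXO1, an RNA exonuclease. H4K20me3 is placed mainly by the methyltransferase SUV420H2 at chromatin that already carries H3K9me3, and it is best known from pericentromeric and telomeric repeats.

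The sequence of the USP17L unit shows how alike its copies are. The lines that follow give 75 bases of the coding exon of USP17L11 (chr4:9218497-9218571, GRCh37, plus strand) and of its neighbour USP17L10 (chr4:9213749-9213823, plus strand), the outermost USP17L gene of the 4p16.1 array. Capitals mark the 3 bases at which these windows differ.
USP17L11: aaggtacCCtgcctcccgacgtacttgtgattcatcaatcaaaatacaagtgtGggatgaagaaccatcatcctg
USP17L10: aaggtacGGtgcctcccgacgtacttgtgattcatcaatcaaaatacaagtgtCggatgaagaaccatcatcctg
The USP17L11 window occurred at 21 places in the genome and the USP17L10 window at 1. Over the whole gene, 28 of 1593 bases differed between these neighbours, an identity of 98.24%. Within the array the 1593-base USP17L genes were 97.55 to 100% identical (median 99.44% over 210 pairs), and 21 pairs were identical throughout. Gene starts followed each other every 4744 to 4751 bp (median 4746 bp, 21 neighbouring pairs). The region around a start is shown for USP17L15, from 250 bases before to 50 bases after its first base (chr4:9235861-9236160, plus strand), with the start codon in capitals. Its 75-base windows occurred at 2 to 20 places (median 13), and for all 226 windows these places were at the 4p16.1 array or in its flanks.
USP17L15 start: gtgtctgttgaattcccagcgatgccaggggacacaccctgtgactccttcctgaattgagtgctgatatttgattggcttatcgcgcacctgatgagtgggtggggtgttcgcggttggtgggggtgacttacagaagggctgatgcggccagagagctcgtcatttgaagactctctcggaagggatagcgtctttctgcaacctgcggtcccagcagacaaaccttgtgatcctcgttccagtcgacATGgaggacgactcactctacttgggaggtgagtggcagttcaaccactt
Of the 26 coding USP17L genes, 23 had a frame open over the whole model, 530 codons in USP17L11.

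To describe how the mark lies over single genes, the share of each gene body inside the regions of a list was computed. Of the 48 members, 44 held at least 1 base of an RS peak, beside 21% of all protein-coding genes, and 32 held a PRO peak, beside 3.97%. All 32 also held an RS peak, and 2.71% of coding genes held both. A DiffBind region lay on 2 members, or 4.17%, beside 18.3% of coding genes. These counts do not allow for gene length. By bases, DiffBind regions covered 1.674% of the member bodies, beside 1.057% of all coding gene bodies. Most members were covered by peaks over much of their length. At least 50% of the body was inside RS peaks for 41 members (1.12% of coding genes) and inside PRO peaks for 31 (0.184%), and only 6 coding genes outside the families passed 50% in PRO. Both lists covered the body to 100% in 21 members, among them USP17L11, USP17L30, FAM90A16 and FAM90A19. With these members included, 22 coding genes (0.109%) were covered in this way, so only 1 lay outside the families. In 6 members more of the body lay in PRO than in RS peaks, beside 1.5% of coding genes. These were FAM90A15P, FAM90A5P, FAM90A22, FAM90A14, FAM90A18 and FAM90A17, all of the distal 8p23.1 array. None of these shares was tested, since the members were selected on this cover.

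**Figure D1:**
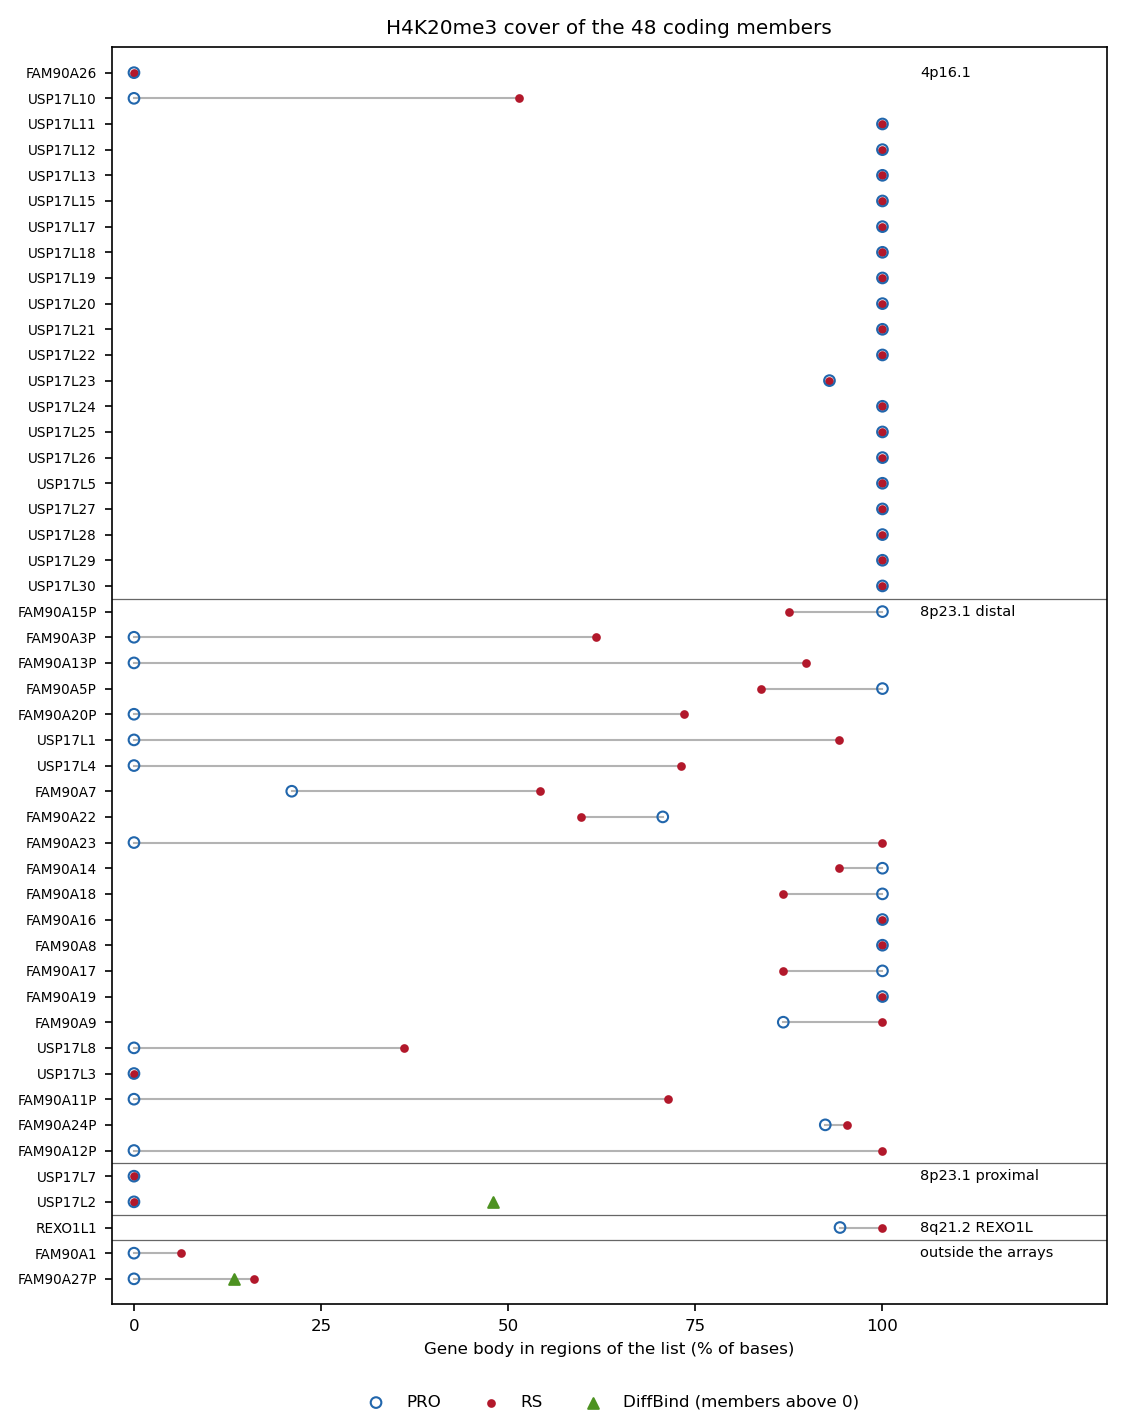
Share of each member's gene body (x axis, % of bases) in PRO peaks (open blue circles), RS peaks (red points) and, for the 2 members with one, DiffBind regions (green triangles), with members in genomic order on the y axis and arrays divided by lines. Most USP17L genes of 4p16.1 sit at 100% in both lists, while FAM90A genes of distal 8p23.1 range from 0 to 100% in PRO and from 54.3 to 100% in RS.

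At 4p16.1 the USP17L genes were covered in both states. Of the 20 coding USP17L genes, 18 had 100% of the body in PRO peaks and 100% in RS peaks, and none had a base in a DiffBind region. USP17L23, a gene of 551 bp cut short by an unsequenced stretch of the assembly, had 92.92% in each list. The remaining gene was USP17L10, the first unit of the array, with 0% in PRO and 51.48% in RS. Its RS cover came from 2 regions, and 37.92% of its 75-base windows occurred more than once, against 100% in USP17L11. The first PRO region of the array started at chr4:9214801, past the end of USP17L10 and 2.33 kb before USP17L11. The first RS region (chr4:9212201-9212601) started 0.182 kb before USP17L10. The 3 pseudogene entries inside the array (USP17L14P, USP17L16P and USP17L9P) were covered to 100% in both lists, as was USP17L6P, which lies just past the last coding gene.

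FAM90A26 opens the 4p16.1 array but is no part of the USP17L repeat. It had 0% of its body in all 3 lists, and 19.2% of its windows were repeated. The 33.9 kb between FAM90A26 and USP17L10 had 0 bases in PRO peaks and 0.536% in RS peaks. In contrast, the sequenced bases from USP17L10 to USP17L30 were 88.6% in PRO peaks and 91.6% in RS peaks. Over the whole array, 92.22 kb of 144.3 sequenced kb lay in PRO peaks and 95.47 kb in RS peaks, a ratio of RS to PRO of 1.04. Bases in both lists made up 94% of PRO cover and 90.8% of RS cover. The assembly has a further 50 kb of unsequenced bases here, so the number of units in the cells is not given by these coordinates.

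**Figure D2:**
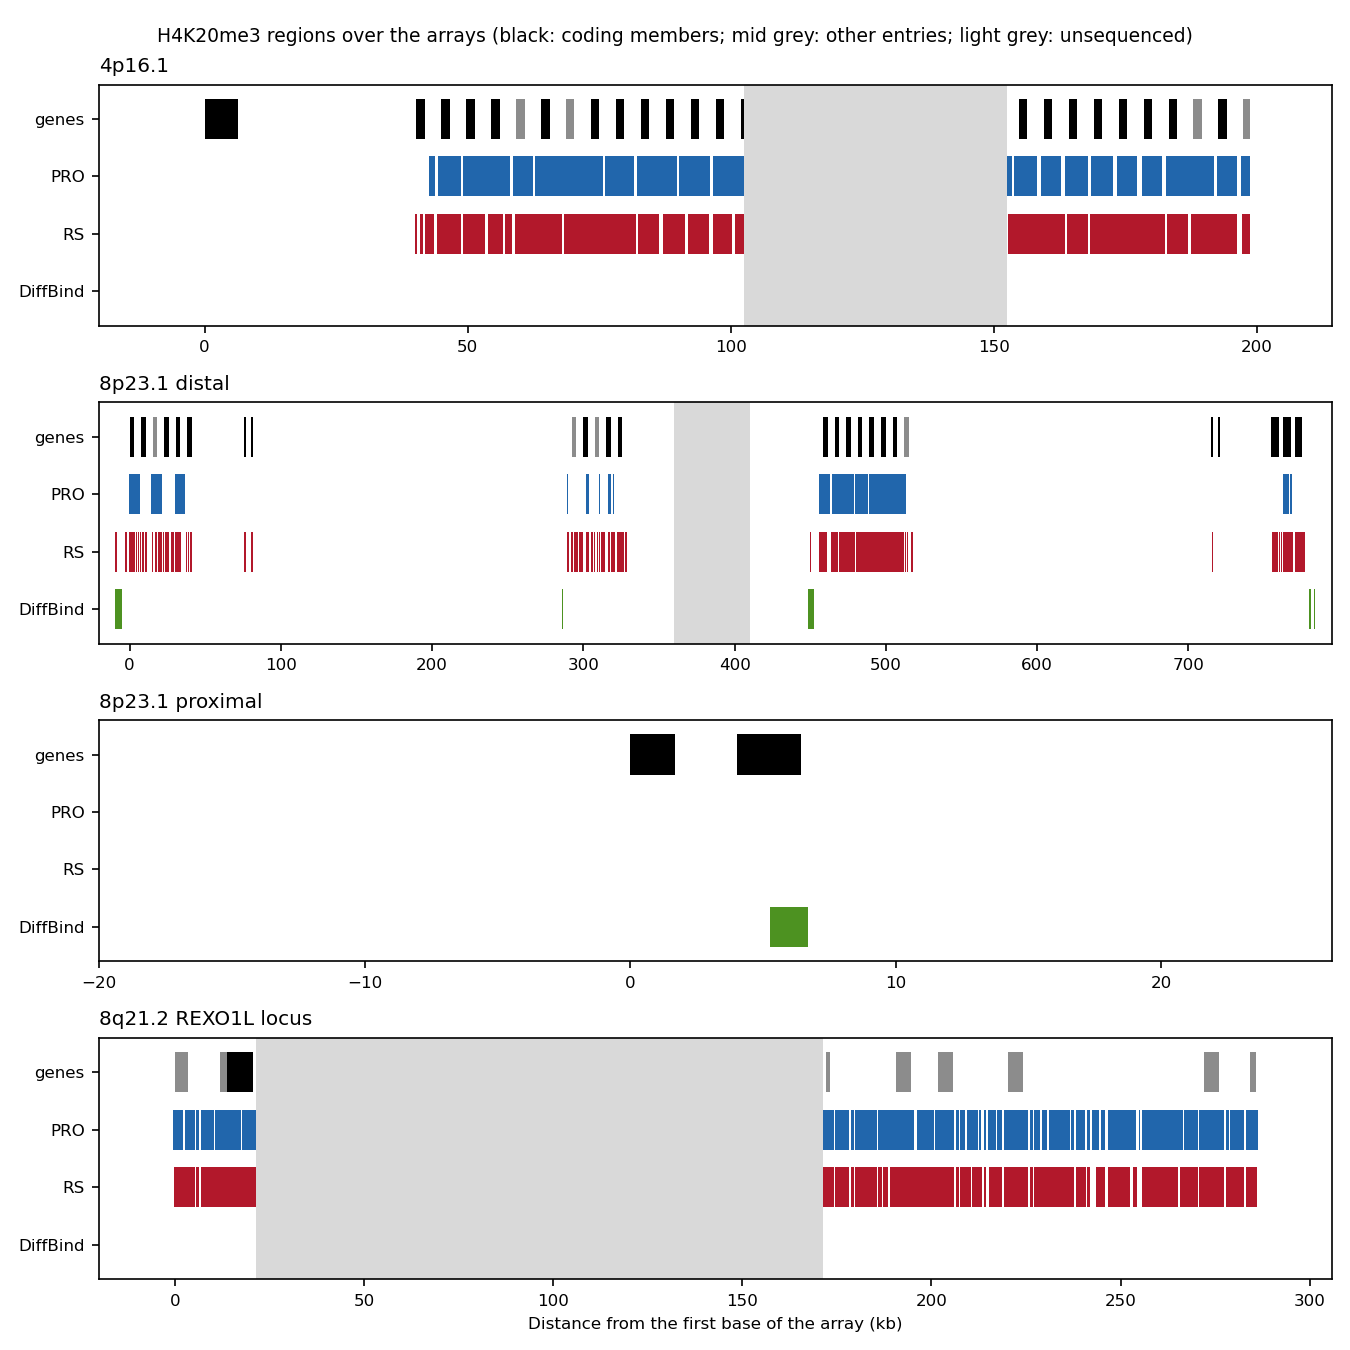
Genes and regions of the PRO, RS and DiffBind lists along the 3 arrays and the REXO1L locus, in kb from the first base of each (x axis) with 20 kb on either side; black boxes are coding members, mid grey boxes other annotated entries, and light grey shading unsequenced bases. PRO and RS regions fill the USP17L repeat and the REXO1L locus, stop at their edges, and form separate blocks in distal 8p23.1.

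The distal 8p23.1 array is a mixture of short FAM90A blocks, a few USP17L genes and long stretches with other genes. Its 18 coding FAM90A genes all held RS peaks, with 54.3 to 100% of the body covered (median 88.64%), and 12 of them held PRO peaks, with 0 to 100% covered (median 89.56%). None held a DiffBind region. FAM90A genes followed each other every 7622 to 7650 bp (median 7647 bp, 18 neighbouring pairs) and entries of 3010 to 3013 bp were 97.05 to 100% identical (median 98.77% over 171 pairs).

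In the block of 7 genes from FAM90A14 to FAM90A9, cover was nearly complete in both states, at 94.7% of 48.9 kb in PRO and 93.1% in RS. FAM90A16, FAM90A8 and FAM90A19 were covered to 100% in both. FAM90A18 and FAM90A17 had 100% in PRO and 86.75% in RS, FAM90A14 had 100% and 94.22%, and FAM90A9 had 86.75% and 100%. In this block the lists thus differed by at most 13.3 percentage points of a gene body.

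In the first block, from FAM90A15P to FAM90A20P, PRO cover skipped every other unit. FAM90A15P, the pseudogene entry FAM90A4P and FAM90A5P had 100% of the body in PRO peaks, while FAM90A3P, FAM90A13P and FAM90A20P, which lie between and after them, had 0%. The 3 PRO regions of this block were 7201, 7201 and 6601 bp long, close to the length of 1 unit. RS peaks lay over all 6 units. They covered 87.55% of FAM90A15P, 61.74% of FAM90A3P, 46.53% of FAM90A4P, 89.74% of FAM90A13P, 83.83% of FAM90A5P and 73.5% of FAM90A20P. Units with PRO cover and units without it were equally repeated for most of the block, with 97.04 to 100% of windows found more than once in the first 5 units and 44.2% in FAM90A20P. FAM90A15P and FAM90A13P, at 100% and 0% in PRO, were 99.9% identical. How reads that fit several copies were placed is not given, so the cover of a copy need not belong to that copy, here and in the other arrays.

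The other 2 blocks with FAM90A genes had less PRO cover. From FAM90A7 to FAM90A23, 21.6% of 26 kb lay in PRO peaks and 65.4% in RS peaks. FAM90A7 had 21.08% in PRO and 54.3% in RS, FAM90A22 had 70.65% and 59.79%, and FAM90A23 had 0% and 100%. From FAM90A11P to FAM90A12P, at the far end of the array, the shares were 28% and 78.6% of 20 kb. FAM90A11P had 0% in PRO and 71.4% in RS, FAM90A24P had 92.36% and 95.21%, and FAM90A12P had 0% and 99.96%. The 6 coding FAM90A genes without a PRO peak thus fell into 3 of the 4 blocks, and each had a neighbour in its block with PRO cover.

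USP17L genes on chromosome 8 did not share the cover of the USP17L genes at 4p16.1. None of the 6 had a base in a PRO peak. In RS, USP17L1 had 94.22% of its body covered, USP17L4 had 73.13%, USP17L8 had 36.1%, and USP17L3, USP17L7 and USP17L2 had 0%. The 1593-base copies on chromosome 8 were 95.79 to 96.67% identical to those of 4p16.1 (84 pairs). Their windows had a median of 1 to 3 places in the genome, while USP17L11 had a median of 20. This copy number differs between the arrays together with the cover, and its part in the result was not tested.

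USP17L7 and USP17L2 form the proximal 8p23.1 array, and USP17L2 is the gene usually called DUB3. Neither had a PRO or RS peak. A DiffBind region of 1401 bp (chr8:11995201-11996601) covered 47.95% of USP17L2, and this was the only DiffBind region on a USP17L gene. The region overlapped no peak of either state. The list does not say in which state the signal was higher.

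At the REXO1L locus the cover was nearly continuous. REXO1L1 had 94.33% of its body in PRO peaks and 100% in RS peaks, and 0% in DiffBind regions. Its 8 pseudogene entries had 88.76 to 100% in PRO and 100% in RS. Of the 136 sequenced kb, 87.5% lay in 38 PRO regions and 89.8% in 28 RS regions, and the longest regions were 10801 bp in PRO and 17001 bp in RS. Bases in both lists made up 96.6% of PRO cover and 94.1% of RS cover. A further 150 kb of the locus are unsequenced in this assembly. REXO1 on chromosome 19 and the other 3 REXO genes, which encode exonucleases at single loci, had 0% in all lists. Most coding genes held no region either, since 3.97% held a PRO peak, 21% an RS peak and 18.3% a DiffBind region.

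The 2 members outside the arrays are largely single-copy. FAM90A1 had 0% in PRO and 6.306% in RS. PRO peaks held 0% of FAM90A27P, RS peaks 16.07% and DiffBind regions 13.36%, and 29.9% of its windows were repeated. Both stood far below the FAM90A genes of the distal array in RS, of which the lowest was FAM90A7 with 54.3%.

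To compare the lists over the loci as a whole, covered bases were summed over the 3 arrays and the REXO1L locus. They held 298.4 kb of PRO peaks, which was 8.7% of the 3.43 Mb in the PRO list. RS peaks there came to 344.4 kb, which was 0.9031% of the RS list, a far larger list of 38.13 Mb. The ratio of RS to PRO was 1.45 in distal 8p23.1 and 1.03 at the REXO1L locus. Of the 50 longest regions of each list, 8 of the PRO list, 5 of the RS list and 0 of the DiffBind list lay at these loci. DiffBind regions covered 5.96 kb, all of it on 8p23.1, against 0 bases at 4p16.1 and at the REXO1L locus.

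At 4p16.1 and the REXO1L locus most cover ended close to the repeats. In the 100 kb before 4p16.1 no base lay in any list, and in the 100 kb after it 3.56% lay in PRO peaks and 4.16% in RS peaks. All of the PRO bases there lay within 4.35 kb of the last coding gene, in 2 regions that end at chr4:9370801, at USP17L6P. The one RS region farther out was 801 bp long (chr4:9455001-9455801). At the REXO1L locus the last PRO region ended 0.524 kb past the last entry and the last RS region 0.124 kb past it. Before the locus they reached 0.405 kb and 0.205 kb, and the rest of both 100 kb flanks was free of regions. In the flanks of distal 8p23.1, PRO cover was 0.425% and 0%, RS cover 4.41% and 4.06%, and DiffBind cover 6.8% and 2.8%. The nearest coding genes on both sides of every locus (HMX1 and DEFB131A, DEFA5 and LRLE1, ZNF705D and FAM86B1, CA2 and ATP6V0D2) had 0% in all 3 lists. They lay 16.9 to 298.6 kb away, in part beyond the flanks, and only 21% of all coding genes held an RS peak.

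Genes that lie among the members were as free of regions as the neighbours. Inside the distal 8p23.1 array 20 coding genes belong to none of the 3 families, 14 of them defensins, which encode antimicrobial peptides. All 20 had 0% of the body in every list. To be read beside these and the following counts, 3.97% of all coding genes held a PRO peak, 21% an RS peak and 18.3% a DiffBind region. Of the 46 defensin genes of the genome, 0 had a PRO peak and 1 had an RS peak (DEFA1, 0.5728% of its body). DiffBind regions lay on 2, DEFA1B with 54.01% and DEFA3 with 49.86%. Of 52 other USP genes, which encode deubiquitinases outside the repeats, 2 had a PRO peak, 5 an RS peak and 8 a DiffBind region, with at most 16.39% of a body covered in any list. Of the 53 clustered protocadherin genes, adhesion genes in tandem clusters of diverged copies, 22 had a PRO peak, 45 an RS peak and 19 a DiffBind region. Their median cover in RS was 10.58% of the body and their highest 91.58%, against a median of 99.98% in the members. These shares do not allow for gene length, and the members were selected on this cover.

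Pooled over the loci, cover was highest where the sequence occurs most often in the genome. Each sequenced base was classed by the number of places in the genome at which the 75-base window that starts there occurs on either strand. Of bases at over 5 places (338.9 kb), 73.9% lay in PRO peaks and 81.6% in RS peaks. At 2 to 5 places (478.9 kb) the shares were 7.1% and 9.87%, and at 1 place (193.6 kb) they were 7.1% and 10.6%. The middle class is mostly distal 8p23.1 (442.3 kb, 2.34% in PRO and 5.05% in RS). Bases at 2 to 5 places were covered to 56% and 53.4% at 4p16.1 and to 79.2% and 88.6% at the REXO1L locus, where RS cover was 89.7% at 1 place and 90.1% at over 5 places. Cover of one copy class also differed between arrays and flanks. In the 100 kb flanks the bases at over 5 places (30.06 kb) had 12.8% in PRO and 22% in RS. Flank bases at 1 place (458.6 kb) had 0.223% and 0.633%, pooled over loci that differed. In RS such bases had 2.65% before and 5.1% after distal 8p23.1, and at most 0.978% in any flank of the other loci. Among members, all 31 with at least 90% of windows repeated held an RS peak and 27 a PRO peak. Of the 10 with 50% to under 90% repeated, 9 held an RS peak and 5 a PRO peak. Of the 7 with under 50% repeated, 4 held an RS peak and 0 a PRO peak. Among all coding genes 21% held an RS peak and 3.97% a PRO peak, and the members were selected on this cover. Copy number was counted in the assembly, not in these cells, and its part in the cover was not tested.

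**Figure D3:**
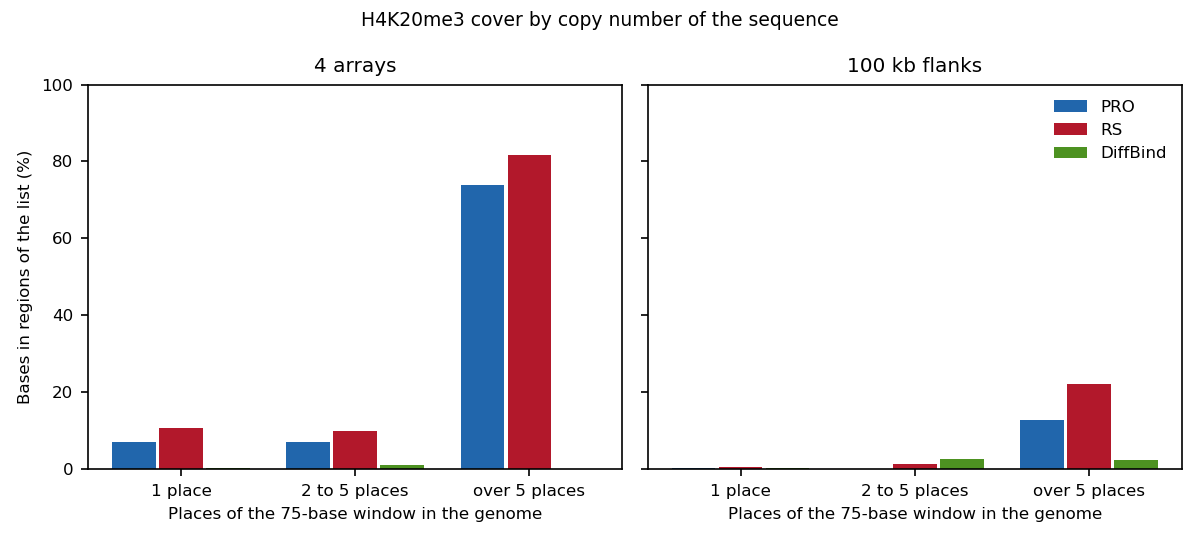
Share of sequenced bases (y axis, %) in PRO, RS and DiffBind regions for sequence found at 1, at 2 to 5 and at over 5 places in the genome, in the 3 arrays and the REXO1L locus (left) and in their 100 kb flanks (right). Bars reach 73.9% in PRO and 81.6% in RS for sequence at over 5 places in the arrays and reach at most 10.6% for sequence at fewer places.

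Bases found at 1 place were covered too where they lay inside a run of repeat units. From USP17L10 to USP17L30, 65.5% of 5.73 kb of such sequence lay in PRO peaks and 76.5% in RS peaks. At the REXO1L locus the shares were 78.4% and 89.7% of 7.48 kb. Against the repeated bases there (88% and 89.9%), cover was lower in PRO and close in RS. From FAM90A15P to FAM90A20P they were 18.1% and 63.4% of 2.65 kb. Between FAM90A26 and USP17L10, by comparison, bases at 1 place (27.9 kb) had 0% in PRO and 0.398% in RS. Domains were called in windows of 200 bp, so these bases cannot be told apart from repeated bases in the same window.

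**Figure D4:**
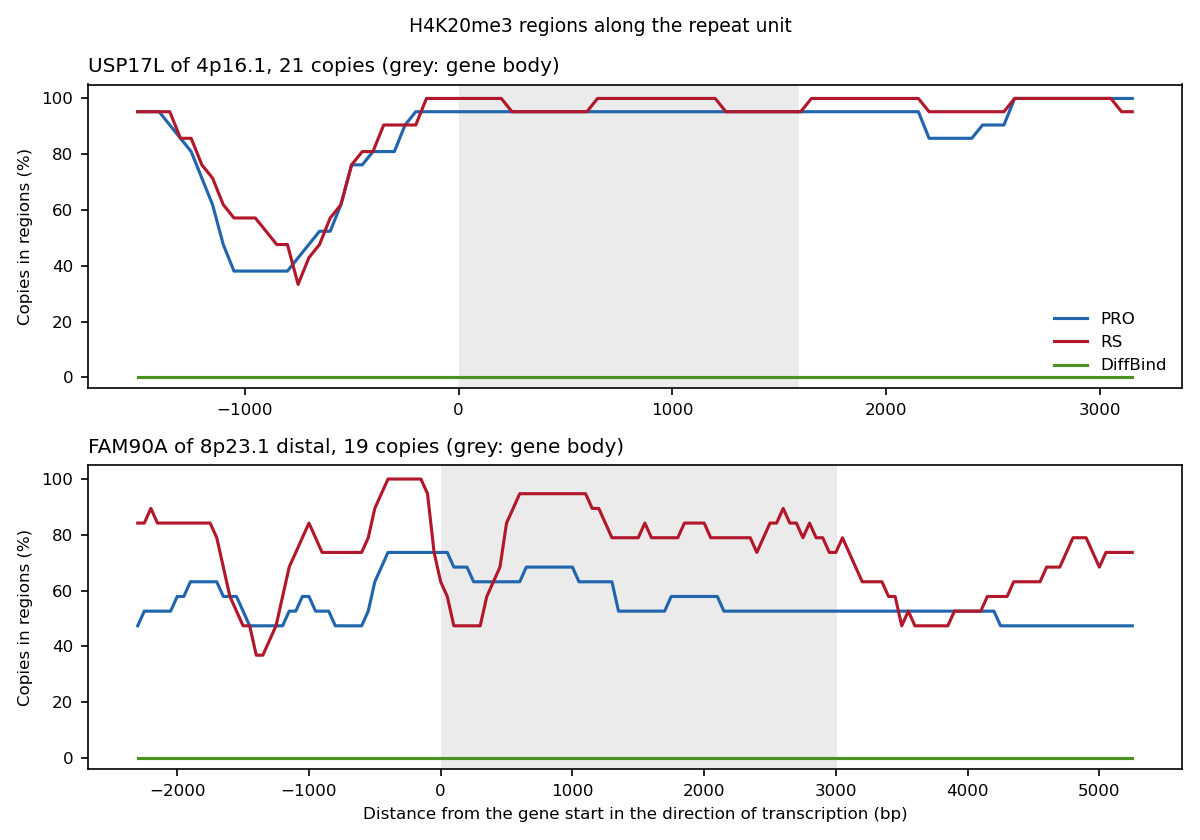
Share of copies (y axis, %) inside PRO, RS and DiffBind regions at each distance from the gene start (x axis, bp, in the direction of transcription) for 21 USP17L copies of 4p16.1 and 19 FAM90A copies of distal 8p23.1, gene body shaded. The USP17L profile drops upstream of the start in both PRO and RS, and the DiffBind line stays at 0.

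Aligning the copies at the gene start showed where in the unit the regions were interrupted. In the 21 USP17L entries of 1593 bp at 4p16.1, 95.2% of gene body bases lay in PRO peaks and 97.7% in RS peaks, and the 1.61 kb downstream had 95.2% and 98.3%. The upstream side was less covered. Between 1100 and 600 bp before the start, the shares fell to 42.4% in PRO and 51.1% in RS. PRO cover was lowest from 1050 to 800 bp upstream, at 38.1% of copies, and RS cover at 750 bp upstream, at 33.33%. The stretch had a median of 40.6% G and C and 30 CpG per kb, against 52.3% and 28.2 in the gene body, and base composition was not tested as a source of the gap.

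The copies differed in this stretch. Of the 23 USP17L entries of 4p16.1, the 300 bases that begin 1000 bp upstream of the start had no base in PRO or RS peaks in 3 (USP17L10, USP17L12 and USP17L22) and lay wholly in both in 4, among them USP17L15. The uncovered stretch is shown for USP17L12 (chr4:9220878-9221177, GRCh37, plus strand, between USP17L11 and USP17L12), the first coding copy without cover in which every window is repeated, with CpG dinucleotides in capitals. Its windows occurred at 5 to 23 places (median 13).
USP17L12 upstream: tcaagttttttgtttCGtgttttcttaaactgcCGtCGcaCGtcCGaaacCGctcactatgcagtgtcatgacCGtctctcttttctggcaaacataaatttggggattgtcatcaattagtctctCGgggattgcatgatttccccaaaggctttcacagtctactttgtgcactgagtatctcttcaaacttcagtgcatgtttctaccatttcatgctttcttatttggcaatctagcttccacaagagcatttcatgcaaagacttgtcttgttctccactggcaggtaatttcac
The same stretch at USP17L15, covered in both lists, had windows at 2 to 23 places (median 13).

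The FAM90A unit also had its lowest RS cover upstream of the start, with a further gap in RS cover just inside the gene. RS regions held 36.84% of copies at 1400 and 1350 bp before the start. PRO regions held 47.37% there, the lowest PRO share of the profile. That PRO share was not particular to the upstream side, since it also held from 4250 to 5250 bp after the start. Of the 19 copies, all were in an RS region from 400 to 150 bp before the gene start, and 47.37% were from 100 to 300 bp after it. PRO regions held 73.68% of copies over the same upstream stretch and 63.16% at 300 bp after the start. The RS share of 47.37% was not particular to the start of the gene, since it also held from 3600 to 3850 bp after the start. Over the whole body the shares of bases were 59.2% in PRO and 79.6% in RS. In base composition the FAM90A members had a median of 58.8% G and C and 42.5 CpG per kb, the USP17L members 52.3% and 28.4, and all coding genes 45.3% and 14.3.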

How the data were processed

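H4K20me3 was measured by ChIP-seq in 4 samples of IMR90 cells, 2 PRO and 2 RS. Reads were aligned by the authors with Bowtie2 (2.1.0) to hg19 as single ends. SICER (1.1) then found domains over total histone H4 in windows of 200 bp, the overlap of both antibodies was kept in each group, and DiffBind (1.8.3) compared the groups. The tool versions come from the submitters' processing notes. How reads that fit several copies equally well were placed is not given in the sources used here. What the authors deposited are positions of regions, with no other value (no count, score, p-value or direction). Coverage here thus means the share of bases inside regions, and read depth at a region is unknown. The study describes a longer DiffBind list, of which the one at hand may be a part or another version.

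Regions were read as 0-based half-open intervals, merged where they touched, and compared with GENCODE release 44 on the GRCh37 sequence, whose chromosomes 1 to 22, X and Y have the coordinates of hg19. Overlap was counted from 1 base over the gene body. Flanks were 100 kb on either side. Every 75-base window of the arrays and flanks was counted on both strands of the genome with numpy (2.4.6) and numba (0.67.0), and identities came from edlib (1.3.9.post1) alignments. The interval and window code was tested on simulated data with known answers. All results are descriptions, with no test.

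The members and gene lists were chosen with earlier results of these data known. Named genes are the first, last, most and least covered members of each array, members with no RS peak, with a DiffBind region or with more PRO than RS cover, members outside arrays, up to 4 of those covered to 100% in both lists, the nearest coding neighbours, REXO1, and defensins with a peak. The other members and entries with values (among them the rest of the FAM90A blocks, the pseudogene entries, DEFA1B and DEFA3) were named after their values were seen. Arrays needed at least 2 members, so the REXO1L locus was added later. Alternatives changed the overlap rule, flank width, region filters and the sequence allowed to repeat.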

Additional observations from a re-analysis of the deposited data

How the results depend on the processing

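No paired analysis was possible because both antibodies of a group are merged into 1 list, and for the same reason no sample could be left out in turn. Of 85 alternatives to 13 counts and covered lengths, 63 stayed within 1.5 times of the value reported and 22 did not. Array and flank bases here are those of the 3 arrays, without the REXO1L locus unless stated. Keeping only regions with no repeated 75-base window gave 0 members and 0 member bases in each of the 3 lists. It also gave 0 array bases and 0 flank bases. Every region on a member, at the 3 arrays or in their flanks thus held a repeated window. Extending gene bodies by 2 kb on either side raised the member bases from 93885 to 201226 in RS and from 70175 to 163031 in PRO by including more sequence. Adding the REXO1L locus, an alternative chosen after seeing the data, raised the array bases from 222259 to 344358 in RS and from 179455 to 298364 in PRO. Flank bases in RS regions (13427) became 8822 with flanks of 50 kb and 25441 with flanks of 250 kb, and those in DiffBind regions rose from 9849 to 24455 with 250 kb. With at least 50% of the body required, 0 members had a DiffBind region in place of 2, and over all annotated entries there were 4. Joining members at 50 kb left 1158 array bases in DiffBind regions in place of 5960, because 2 regions lie between the blocks. With 36-base windows the repeated array bases in RS peaks went from 208434 to 215453. The lists give no depth, and the assembly lacks parts of 3 of these loci, so cover of unsequenced units was not analysed here.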

Other observations

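Other families of tandem gene copies were covered to different degrees. Beside them, 3.97% of all coding genes held a PRO peak, 21% an RS peak and 18.3% a DiffBind region. DUX4, a transcription factor gene of the D4Z4 macrosatellite, had 100% of its body in PRO peaks and 100% in RS peaks, with 0% in DiffBind regions. Of 12 TAF11L genes, relatives of a subunit of the general transcription factor TFIID, 8 had an RS peak and 0 a PRO peak, with a median of 100% of the body in RS. Of 17 GAGE genes, cancer-testis genes, 9 had a PRO peak and 15 an RS peak, with medians of 3.548% and 19.03%. Of 6 PRR20 genes, 2 had a PRO peak and 4 an RS peak, with at most 25.81% and 42.11% of a body. Of 12 CT47A genes, 2 had a PRO peak and 1 an RS peak, and of 7 TSPY genes 0 had a region in any list. These lists were chosen after values of these data had been seen, and none was tested.

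Pseudogene entries near the arrays also carried regions. FAM90A2P and FAM90A25P, outside the proximal 8p23.1 array, each had 13.32% of the body in RS peaks and 0% in PRO, and DiffBind regions covered 0% of FAM90A2P and 100% of FAM90A25P. FAM90A28P, near FAM90A27P on chromosome 19, had 24.22% in RS and 22.2% in DiffBind regions.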
